A study of Mus musculus with 4 samples.

Results

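The endoplasmic reticulum (ER) folding machinery and the unfolded protein response were followed through 38 genes out of 32288 measured features, all of which were found in the tables. The genes were chosen by function, with earlier results of these data known. They are 18 folding genes (chaperones, protein disulfide isomerases, co-chaperones and oxidases), 6 genes of ER-associated degradation, 4 stress sensors and their transcription factors, 6 stress effectors and 4 genes of translocation and signal peptide processing. Levels were taken in sorted EYFP-positive pancreas cells of 4 mice, sequenced as single cells. All 4 were of the genotype Ptf1aCre-ERTM;ROSAYFP/+, backcrossed into CD-1 and 10 weeks old when injury began. All had received tamoxifen by gavage, which marks cells with an active Ptf1a promoter (that is, acinar cells, which secrete the digestive enzymes) and their descendants with EYFP. All had then received intraperitoneal caerulein, a cholecystokinin analogue that causes pancreatitis, for 2 weeks in 2 mice and for 4 weeks in 2 mice. There is no uninjured or unmarked group among them.

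Proteins of the secretory pathway are threaded into the ER, freed of their signal peptide, folded by chaperones and joined by disulfide bonds, and those that fail are drawn back out and degraded. When unfolded protein accumulates, the sensors IRE1 (Ern1), ATF6 and PERK (Eif2ak3) are activated: IRE1 splices Xbp1 mRNA, XBP1 and cleaved ATF6 induce chaperone and degradation genes, and PERK slows translation while favouring ATF4, whose targets include Ddit3 (CHOP), Trib3, Chac1 and Asns. Acinar cells hold a very extensive ER, and this response is known to be engaged in them in health and in pancreatitis. Counts of mRNA 3' ends, as used here, do not read splicing, cleavage or phosphorylation.

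Promoters were searched for the sequences that the transcription factors of this response are known to bind. Genes of this response are known in part as targets of these factors, so the counts describe the members and are not independent of their choice. RefSeq promoters (250 bases before to 50 bases after the start site, build GRCm38.p6) were matched for 33 of 38 members. The ER stress response element (ERSE; CCAAT, 9 bases, CCACG; both strands) was present in 10 of these 33 and in 39 of all 32851 promoters (0.119%). Folding members held 8 of the 10 and degradation members 2, and the searched windows of the sensors, stress effectors and translocation members held 0. The sites are shown 5′ to 3′ on the strand that reads CCAAT first, with the fixed bases in capitals, so that the constant ends and the differing spacers can be seen.
Hspa5 chr2:34772025-34772043 (same strand as the gene): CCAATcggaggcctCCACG
Hsp90b1 chr10:86705638-86705656 (same strand as the gene): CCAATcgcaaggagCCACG
Hsp90b1 chr10:86705533-86705551 (strand opposite to the gene): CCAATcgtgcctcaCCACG
Pdia6 chr12:17266491-17266509 (same strand as the gene): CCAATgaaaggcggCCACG
Calr chr8:84847075-84847093 (strand opposite to the gene): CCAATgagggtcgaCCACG
Canx chr11:50325800-50325818 (same strand as the gene): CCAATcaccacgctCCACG
Dnajc3 chr14:118937827-118937845 (same strand as the gene): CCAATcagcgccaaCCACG
Creld2 chr15:88819520-88819538 (strand opposite to the gene): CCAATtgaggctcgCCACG
Ero1lb chr13:12565682-12565700 (strand opposite to the gene): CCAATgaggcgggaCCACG
Syvn1 chr19:6046532-6046550 (same strand as the gene): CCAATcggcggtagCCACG
Derl3 chr10:75893242-75893260 (strand opposite to the gene): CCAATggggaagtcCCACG

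The shorter ERSE-II (ATTGG, 1 base, CCACG; both strands) was found in Dnajb11 and Herpud1 and in 12 promoters in all (0.0365%), and its fixed bases are again in capitals.
Dnajb11 chr16:22857852-22857862 (same strand as the gene): ATTGGcCCACG
Herpud1 chr8:94386377-94386387 (same strand as the gene): ATTGGgCCACG
The unfolded protein response element TGACGTGG was found in 0 of the 33 member promoters and in 222 of all (0.676%). The ATF4 element TGATGCAA was present in Herpud1 and Chac1 and in 294 of all (0.895%). CCAAT alone stood in 24 of 33 member promoters and in 37.4% of all, and CCACG alone in 26 of 33 and in 32.8%. CCACG is part of the ERSE, of ERSE-II and of the reverse strand of TGACGTGG, so these counts overlap. A match describes only the letters of a window.

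Windows of 250 bases before the start site are shown for a folding member, 2 degradation members and a stress effector whose levels are given below, on the gene's own strand. Capitals mark the fixed bases of the ERSE and the whole of ERSE-II and of the ATF4 element; CCAAT and CCACG outside these are left in lower case.
Hspa5 chr2:34771840-34772089 (+ strand): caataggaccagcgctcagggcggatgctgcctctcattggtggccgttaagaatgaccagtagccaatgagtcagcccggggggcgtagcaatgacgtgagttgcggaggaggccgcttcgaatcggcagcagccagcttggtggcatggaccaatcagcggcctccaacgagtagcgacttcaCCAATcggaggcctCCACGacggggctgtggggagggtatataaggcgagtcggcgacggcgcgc
Derl3 chr10:75893148-75893397 (+ strand): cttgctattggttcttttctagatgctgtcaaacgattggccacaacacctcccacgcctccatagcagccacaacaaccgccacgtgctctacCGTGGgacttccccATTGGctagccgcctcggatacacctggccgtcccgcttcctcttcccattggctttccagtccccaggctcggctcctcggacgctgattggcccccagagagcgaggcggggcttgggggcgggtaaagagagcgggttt
Herpud1 chr8:94386179-94386428 (+ strand): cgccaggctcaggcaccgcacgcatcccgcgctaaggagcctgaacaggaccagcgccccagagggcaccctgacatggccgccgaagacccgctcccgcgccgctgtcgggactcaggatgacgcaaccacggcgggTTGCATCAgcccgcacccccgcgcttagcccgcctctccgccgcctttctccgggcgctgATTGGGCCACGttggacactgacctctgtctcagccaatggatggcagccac
Chac1 chr2:119350992-119351241 (+ strand): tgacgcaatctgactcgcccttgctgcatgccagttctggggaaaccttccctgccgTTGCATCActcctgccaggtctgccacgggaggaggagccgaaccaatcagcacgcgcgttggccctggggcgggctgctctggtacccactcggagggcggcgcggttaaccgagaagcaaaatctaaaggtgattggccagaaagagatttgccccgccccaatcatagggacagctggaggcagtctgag
Hspa5 and Derl3 each hold an ERSE, which in Derl3 lies on the opposite strand. Herpud1 holds an ERSE-II and an ATF4 element, and Chac1 holds an ATF4 element, which in both lies on the opposite strand and so reads as the reverse complement.

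The authors' deposited cell type names covered 13362 cells in 8 types, 2814 to 3974 cells and 60224505 to 90547790 UMIs (counted transcripts) per mouse. The names were checked against markers: 6 acinar markers summed to 260321 per 1000000 UMIs (CPM) in Acinar and 9665 in MucinDuctal cells, and 13 mucin and ductal markers to 97300 in MucinDuctal and 2934 in Acinar cells, where Gkn2 was at 0. The 6 tuft markers summed to 4998 in Tuft cells and the 9 enteroendocrine markers to 100931 in enteroendocrine cells (EEC). The type named Acinar/MucinDuctal carried both programs. Its median UMIs per cell were 2659 to 3555 in 3 mice and 19556 in 2-week mouse 2, where 6 plasma cell markers also summed to 4773 CPM against 128 to 493 in the other mice. Of 21068 distinct barcodes, 67 occurred in more than 1 mouse. Cells of 1 type in 1 mouse were summed, the mouse is the replicate, and values are given for 2-week mouse 1, 2-week mouse 2, 4-week mouse 1 and 4-week mouse 2, in that order.

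The total of which CPM are a share differs between types. UMIs of 37 acinar enzyme genes made up 53.5%, 50.1%, 59.6% and 60.4% of all UMIs in Acinar cells and 3.16%, 1.43%, 3.1% and 2.49% in MucinDuctal cells. Each comparison was therefore made with all UMIs and again without enzyme UMIs. It was further made without the 28 genes that exceed 1% of the UMIs, and with totals scaled by TMM, a method that assumes most genes to be unchanged. Only a direction seen in all 4 mice under these 4 totals is called independent of the total below. The 4 totals are not separate checks. In MucinDuctal cells 248 genes were lower under all 4, the same 248 that were lower with all UMIs. The 3336 genes higher under all 4 were likewise those higher after TMM scaling. The lower genes of Tuft, EEC and Acinar.Prolif cells matched in the same way. The label thus means that a direction held under the strictest of these totals. The types were defined by the authors on these same counts, so type differences are descriptions without a test.

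In MucinDuctal cells, mucin-secreting cells that descend from marked cells, 22 of 38 members were higher than in Acinar cells in every mouse and 9 were lower, with all UMIs counted. By the same rule 92.9% of 8769 genes (mean of at least 5 CPM over both types) were higher and 2.83% lower. Without enzyme UMIs 3 members were higher and 26 lower, against 59.3% and 16.2% of genes. The median member had a log2 ratio of 0.44 on the first total and -0.70 on the second, where the median gene had 1.44 and 0.41. Independent of the total, 1 member was higher (38% of genes) and 9 were lower (2.83% of genes). Dnajb9 was the higher one, and Pdia2, Sdf2l1, Creld2, Ero1lb, Sel1l, Edem1, Derl3, Trib3 and Chac1 were lower. Without the genes over 1%, 2 members were higher and 24 lower (59.3% and 13.5% of genes), and after TMM scaling 1 was higher and 33 lower (38% and 32% of genes). Without 2-week mouse 2, 28 members were higher and 9 lower with all UMIs counted (94% and 3.19% of genes).

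**Figure D1:**
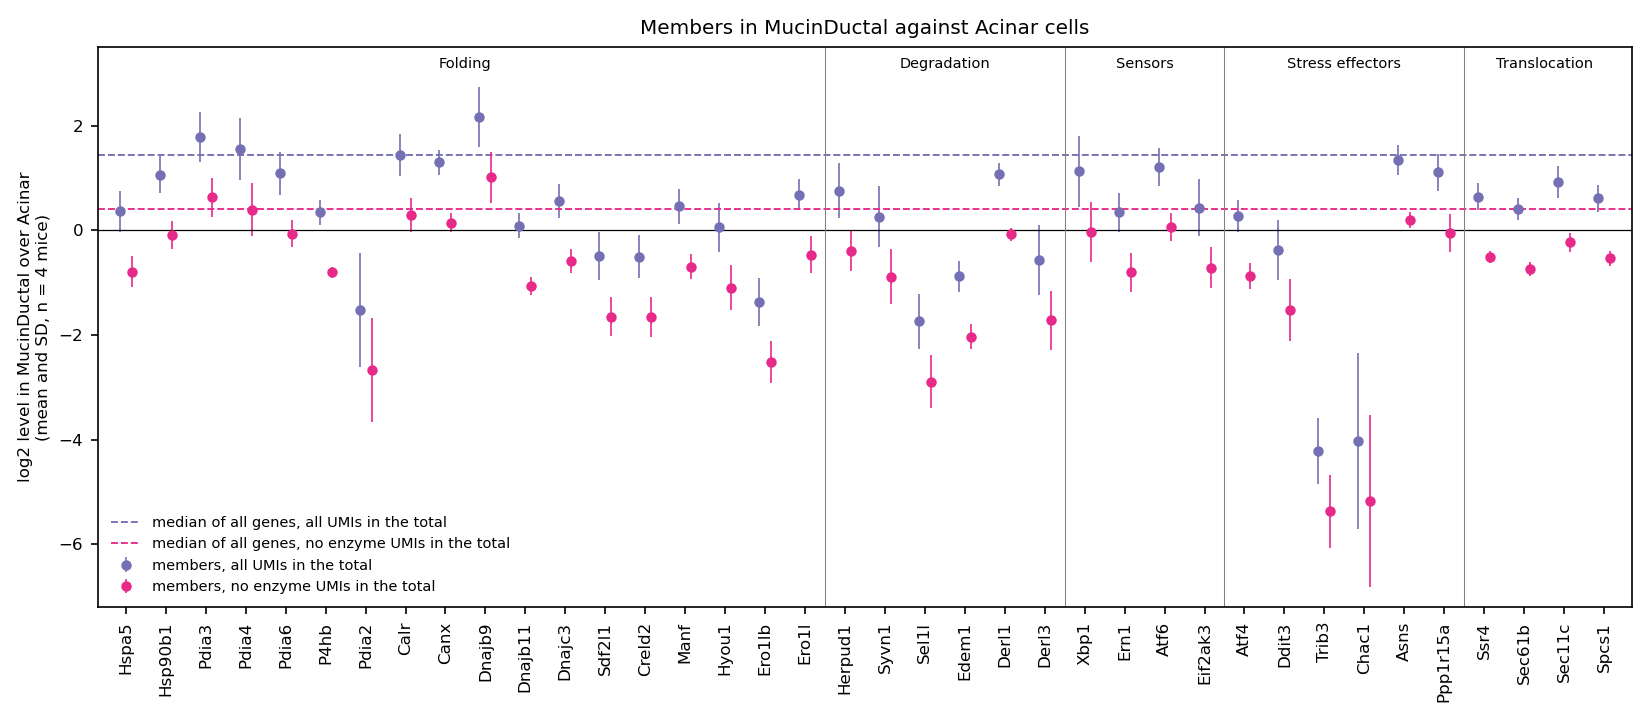
Each of the 38 members in MucinDuctal against Acinar cells (log2 ratio, mean and SD over 4 mice), by group, with all UMIs in the total and without acinar enzyme UMIs. Dashed lines mark the medians of 8769 genes, 1.44 and 0.41. Unlike the points, these use log2 ratios of mean levels with 1 CPM added. Most members lie below the dashed line of their own total, and Trib3 and Chac1 lie lowest.

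Folding genes had the highest summed level of the 5 groups. In Acinar cells the sum was 4348, 5163, 4483 and 4202 CPM, and in MucinDuctal cells 6533, 5027, 7103 and 6447 CPM. MucinDuctal cells were higher in 3 of 4 mice, and 2-week mouse 2 was the exception. Without enzyme UMIs the sums were 9344, 10342, 11102 and 10600.3 CPM in Acinar and 6745, 5100.5, 7330.4 and 6612 CPM in MucinDuctal cells, lower in all 4 mice without overlap (log2 ratio 0.46 ± 0.33 with all UMIs, -0.69 ± 0.23 without enzyme UMIs; SD, n = 4 mice, as for every ± below unless another n is given). Proliferating acinar cells (Acinar.Prolif) had 6119 ± 556 CPM with all UMIs, above Acinar cells in 4 of 4 mice (as were 73.9% of 7008 genes), and 10806 ± 536 CPM without enzyme UMIs, above in 3 (log2 ratios 0.43 ± 0.11 and 0.06 ± 0.07). After TMM scaling the folding members differed in Acinar.Prolif cells. Hsp90b1 was higher than in Acinar cells in 4 of 4 mice, and Pdia4, P4hb, Canx, Sdf2l1, Creld2 and Manf in 3 of 4. Pdia6, Calr, Dnajb11 and Hyou1 were higher in 2 and Ero1l in 1. Hspa5, Pdia2, Pdia3, Dnajb9, Dnajc3 and Ero1lb were higher in 0 of 4 (log2 ratios -0.15, -0.59, -0.17, -0.46, -0.33 and -0.35). Tuft cells were below Acinar cells in every mouse on both totals, with 3603 ± 286 CPM of all UMIs, while EEC, at 4499 ± 303 CPM, were above in 2 mice with all UMIs and in 0 without enzyme UMIs.

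**Figure D2:**
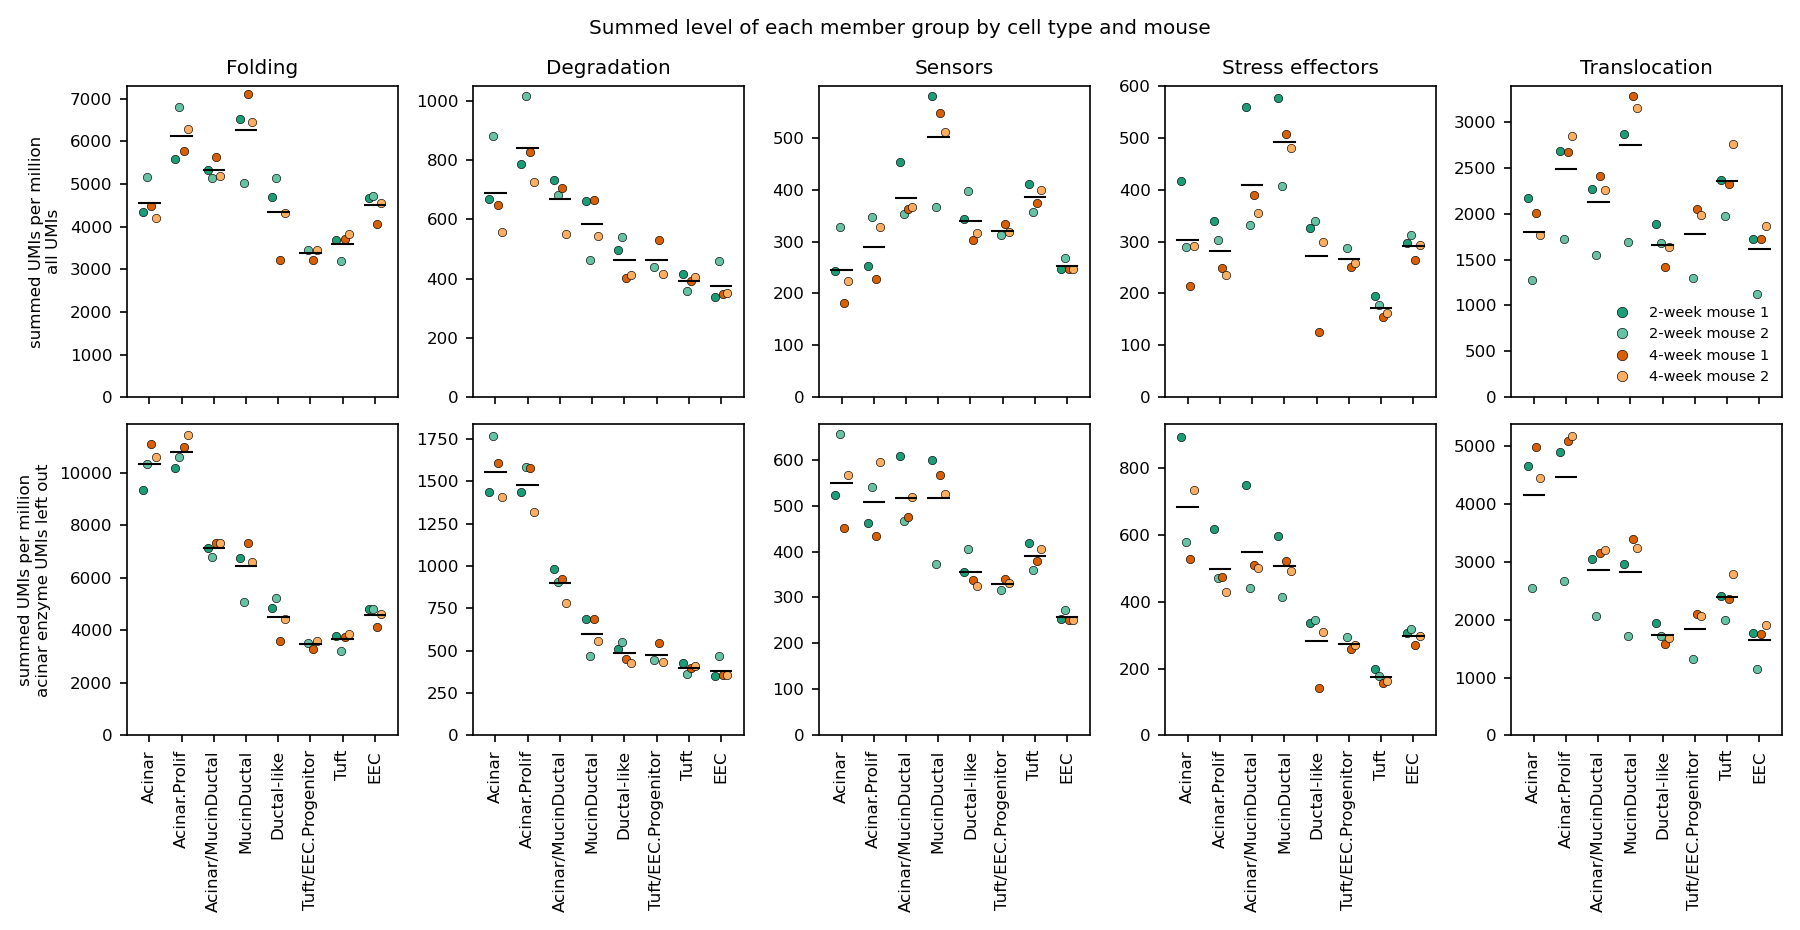
Summed level of each member group (CPM) in the 8 cell types with all UMIs in the total and without acinar enzyme UMIs; points are mice and lines their means. Folding sums are higher in MucinDuctal than in Acinar cells in 3 of 4 mice on the first total and lower in all 4 on the second.

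Hspa5 encodes BiP, the main Hsp70 chaperone of the ER, and is the usual marker of the response. It measured 512, 737, 436 and 545 CPM in Acinar cells and 729, 647, 711 and 724 CPM in MucinDuctal cells. The MucinDuctal level was higher in 3 of 4 mice, the exception being 2-week mouse 2, whose Acinar cells had the highest value. Without enzyme UMIs Hspa5 averaged 1259 ± 199 CPM in Acinar and 721 ± 44.2 CPM in MucinDuctal cells and was lower there in every mouse. Tuft cells had 313, 302, 275 and 276 CPM, below Acinar cells independent of the total. EEC had 776, 755, 635 and 623 CPM.

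Hsp90b1, the ER form of Hsp90 (GRP94), had another order of types. Its highest mean among the 8 types was in Tuft cells, at 1082, 899, 1289 and 1337 CPM, where Hspa5 was low. Acinar cells had 365, 526, 406 and 414 CPM and MucinDuctal cells 855, 764, 1024 and 921 CPM. Tuft cells exceeded Acinar cells in every mouse with all UMIs, in 3 of 4 without enzyme UMIs (log2 ratio 0.26 ± 0.32) and in 0 of 4 after TMM scaling (-0.41). Hsp90b1 was also the 1 member higher in Acinar.Prolif than in Acinar cells independent of the total, with 609, 857, 676 and 762 CPM.

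Pdia2, a disulfide isomerase that is enriched in the pancreas, had the highest mean of the folding members in Acinar cells. It measured 1171, 1115, 1321 and 1067 CPM there and 1120.4, 1096, 1295 and 1076 CPM in Acinar.Prolif cells. MucinDuctal cells had 600.3, 125, 747 and 479 CPM, lower independent of the total, with 2-week mouse 2 far below the others; this mouse also had the lowest enzyme share in MucinDuctal cells (1.43%). Tuft cells had 86.04, 40.6, 58.3 and 45.1 CPM and EEC 107, 93.97, 66.8 and 81.7 CPM. RNA from broken cells can enter every droplet, and values are therefore also given for 1220 cells without a deposited type that carried B or T cell markers. These B or T cells held 164, 99.8, 104 and 358 CPM of Pdia2, and their enzyme share was 5.14%, 3.07%, 4.66% and 22.2%, so that 4-week mouse 2 stood apart in both. Tuft cells and EEC lay below the B or T cells in CPM in every mouse, and MucinDuctal cells lay above them. B or T cells are shallower, with a median of 2973 to 3888 UMIs against 14809 to 20481 in Tuft cells and 11136 to 14682 in EEC, and the same amount of free RNA makes up a larger share of a shallow cell. Without thinning, cells with a Pdia2 UMI made up 67.5%, 39.4%, 45.8% and 41.6% of Tuft cells, 60.2%, 47.9%, 42.03% and 39.7% of EEC and 42.5%, 23.4%, 23.2% and 28.2% of B or T cells. With every cell thinned to 1500 UMIs the shares were 11.1%, 5.28%, 7.77% and 6.61% in Tuft cells, 13.2%, 10.7%, 9.44% and 9.56% in EEC and 21.4%, 10.03%, 10.9% and 17.8% in B or T cells, lower than in B or T cells in 4 of 4 mice for Tuft cells and in 3 of 4 for EEC. The order of the types thus changed with the depth compared, and the part of free RNA in the Tuft and EEC values was not tested.

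Pdia3 (ERp57), which works on glycoproteins together with calnexin and calreticulin, went the other way. Its level was 146, 246, 145 and 159 CPM in Acinar and 536, 519, 656 and 635 CPM in MucinDuctal cells, without overlap. MucinDuctal cells were higher in every mouse with and without enzyme UMIs (log2 ratios 1.78 ± 0.49 and 0.63 ± 0.37) and in 3 of 4 mice under each of the other totals. Pdia4 had 74.5 ± 23.5 CPM in Acinar and 212 ± 28.5 CPM in MucinDuctal cells. The lectin chaperone Calr (calreticulin) had 257 ± 65.5 and 686 ± 68.05 CPM. Canx (calnexin), its membrane-bound counterpart, had 128 ± 20.7 and 311 ± 26.02 CPM. These 3 were higher in MucinDuctal cells in every mouse with all UMIs and in 3 of 4 without enzyme UMIs. After TMM scaling Canx was higher in 0 of 4 mice (log2 ratio -0.26), Calr in 1 (-0.11) and Pdia4 in 3.

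P4hb, the most widely studied isomerase, stood at 366 ± 47.9 CPM in Acinar and 465 ± 65.3 CPM in MucinDuctal cells. It was higher in MucinDuctal cells in every mouse with all UMIs and lower in every mouse without enzyme UMIs. In Tuft cells (126 ± 13.3 CPM) and EEC (165 ± 17.7 CPM) P4hb was lower than in Acinar cells independent of the total. Pdia6 had 287 ± 18.8 CPM in Acinar and 621 ± 141 CPM in MucinDuctal cells, higher in 4 mice with all UMIs, in 2 without enzyme UMIs and in 0 after TMM scaling (log2 ratio -0.46), and it was lower in Tuft cells (235 ± 15.2 CPM) independent of the total.

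Dnajb9 (ERdj4), a co-chaperone of BiP and a known target of XBP1, measured 27.2, 47.3, 22.7 and 24.1 CPM in Acinar and 157, 119.8, 104 and 142 CPM in MucinDuctal cells. The ranges did not overlap. The log2 ratio was 2.16 ± 0.57 with all UMIs, 1.01 ± 0.49 without enzyme UMIs and 0.61 after TMM scaling. Tuft cells had 118, 90.02, 103 and 134 CPM and EEC 63.4, 75.02, 74.7 and 60.8 CPM. Among the other co-chaperones of BiP, Dnajb11 had 91.2 ± 4.68 CPM in Acinar and 97.1 ± 10.7 CPM in MucinDuctal cells, and Dnajc3 (p58IPK) 190.4 ± 7.98 and 284 ± 49.7 CPM. Both were lower in MucinDuctal cells in every mouse without enzyme UMIs.

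Besides Pdia2, 3 folding members were lower in MucinDuctal than in Acinar cells independent of the total. Ero1lb, the oxidase that recharges disulfide isomerases in secretory cells of the pancreas, had 92.2, 82.4, 96.04 and 82.5 CPM in Acinar and 45.6, 20.6, 46.3 and 31.2 CPM in MucinDuctal cells. No MucinDuctal value came near the lowest Acinar one. Tuft cells held 124 ± 15.4 CPM of Ero1lb, above Acinar cells in every mouse with all UMIs and in none without enzyme UMIs. Sdf2l1, which forms a complex with ER co-chaperones, had 186, 218, 208 and 205 CPM in Acinar and 152, 96.5, 187 and 158 CPM in MucinDuctal cells. Creld2, a secreted ER stress protein, had 83.2 ± 13.2 and 58.5 ± 7.58 CPM. The related oxidase Ero1l, which is widely expressed, had 9.595 ± 1.79 and 15.2 ± 0.336 CPM. It was higher in MucinDuctal cells in every mouse with all UMIs. It was higher in 0 of 4 mice without enzyme UMIs, without genes over 1% and after TMM scaling (log2 ratios -0.47, -0.36 and -0.87). Manf, a secreted factor induced by ER stress, had 349.7 ± 38.5 and 481 ± 64.6 CPM, and Hyou1, an exchange factor of BiP, 61.4 ± 15.5 and 63.1 ± 11.9 CPM; both were higher in 3 of 4 mice with all UMIs and lower in every mouse without enzyme UMIs.

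Degradation members summed to 668, 881, 648 and 557 CPM in Acinar and 663, 464, 666 and 545 CPM in MucinDuctal cells. Without enzyme UMIs the means were 1553 ± 167 and 600.4 ± 105 CPM, lower in MucinDuctal cells in every mouse. Sel1l, the adaptor that brings substrates to the HRD1 ubiquitin ligase, had 263, 400, 268 and 235 CPM in Acinar and 118, 74.4, 89.3 and 67.7 CPM in MucinDuctal cells. The ranges were far apart, with a mean ratio 3.35-fold lower in MucinDuctal cells with all UMIs. Edem1, a lectin that hands misfolded glycoproteins on, stood at 109, 95.5, 107 and 82.9 CPM in Acinar, 68.5, 39.05, 57.3 and 52.6 in MucinDuctal and 14.05, 13.4, 12.6 and 14.4 in Tuft cells. These 3 ranges did not overlap.

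Derl3, a derlin of the retrotranslocation channel that is found mainly in secretory tissues, measured 54.5, 78.6, 62.8 and 49.4 CPM in Acinar and 44.6, 26.3, 52.6 and 43.9 CPM in MucinDuctal cells. MucinDuctal values were lower within every mouse although the ranges overlapped. Tuft cells had 4.68, 2.99, 0.601 and 1.92 CPM, from 8, 40, 2 and 10 UMIs, and EEC 7.65, 11.1, 9.47 and 8.68 CPM. The B or T cells held 7.47, 20.4, 74.5 and 24.5 CPM, and they include antibody-secreting cells: their plasma cell markers summed to 33828, 12612, 175441 and 22953 CPM, highest in the mouse that was also highest in Derl3. Derl1, the widely expressed relative, had the reverse order with all UMIs, 38.6 ± 2.63 CPM in Acinar, 81.4 ± 10.7 in MucinDuctal and 99.3 ± 11.1 in Tuft cells. In MucinDuctal cells Derl1 was higher in 1 of 4 mice without enzyme UMIs (log2 ratio -0.08) and in 0 after TMM scaling (-0.48). Its excess in Tuft cells held in every mouse with and without enzyme UMIs and in 0 of 4 after TMM scaling. Herpud1, a membrane component of the HRD1 complex, had 179, 231, 157 and 129 CPM in Acinar and 312, 233, 353 and 267 CPM in MucinDuctal cells, higher in every mouse with all UMIs and lower in every mouse without enzyme UMIs. Syvn1, the HRD1 ligase itself, stood at 24.3 ± 9.001 and 28.2 ± 5.81 CPM.

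Among the sensors, Xbp1, the transcription factor whose mRNA IRE1 splices, carried most of the summed level. It measured 186, 271, 146 and 181 CPM in Acinar, 494, 301, 466 and 432 in MucinDuctal and 363, 308, 306 and 342 in Tuft cells. MucinDuctal and Tuft cells exceeded Acinar cells in every mouse with all UMIs. Without enzyme UMIs the Xbp1 means were 440.1 ± 79.1 CPM in Acinar and 435 ± 90.7 in MucinDuctal cells, with 2 of 4 mice higher in MucinDuctal cells, and after TMM scaling 0 of 4 were (log2 ratio -0.43). Tuft cells were higher in Xbp1 in 0 of 4 mice without enzyme UMIs (-0.38). Atf6, the sensor that is cleaved in the Golgi, had 15.7 ± 2.22 CPM in Acinar and 36.2 ± 4.61 in MucinDuctal cells with all UMIs, and 35.5 ± 2.81 and 37.2 ± 4.98 CPM without enzyme UMIs; after TMM scaling it was higher in MucinDuctal cells in 0 of 4 mice (log2 ratio -0.34). Eif2ak3 (PERK) had 22.9 ± 7.01 CPM in Acinar cells and was lower independent of the total in EEC (10.7 ± 2.06 CPM) and in Acinar.Prolif cells (16.9 ± 4.57 CPM).

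Ern1 (IRE1) had its highest level in EEC, 28.6, 29.8, 24.99 and 31.4 CPM, against 14.4, 7.84, 8.23 and 9.56 CPM in Acinar cells. The ranges did not overlap with all UMIs, and without enzyme UMIs EEC were higher in 3 of 4 mice (log2 ratio 0.40 ± 0.42). After TMM scaling the direction turned, with 1 of 4 mice higher (-0.52). Within EEC, the subtype ECL (Tac1+) had 50.4 ± 11.8 CPM and Delta (Sst+) 36.01 ± 13.2 CPM, while Epsilon (Ghrl+) had 23.3 ± 6.42 CPM and EEC-Progenitor (Neurog3+) 21.8 ± 2.72 CPM. Each mouse had 29 to 45 Delta (Sst+) cells, and their spread between mice reached into the range of the other subtypes.

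Stress effectors summed to 416, 289, 214 and 291 CPM in Acinar, 578, 407, 507 and 480.1 in MucinDuctal and 194, 178, 155 and 162 in Tuft cells. MucinDuctal cells were higher than Acinar cells in every mouse with all UMIs and lower in every mouse without enzyme UMIs. Most of these sums came from Atf4 and Asns, and the members differed in order. With all UMIs Ddit3, Trib3 and Chac1 had their highest mean of the 8 types in Acinar cells, Asns in MucinDuctal cells, and Atf4 and Ppp1r15a in EEC.

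Trib3 encodes a pseudokinase that restrains AKT and ATF4. Acinar cells had 17.2, 8.53, 6.701 and 17.7 CPM from 860, 148, 175 and 630 UMIs. MucinDuctal cells had 1.04, 0.486, 0.557 and 0.514 CPM from 9, 18, 10 and 12 UMIs, and Tuft cells had 0, 2, 1 and 1 UMIs in all. The MucinDuctal level was 18.6-fold lower than the Acinar level with all UMIs and 41.3-fold lower without enzyme UMIs. Acinar.Prolif cells, in which enzyme UMIs made up 35.7% to 47.5% of the total, had 2.01, 0, 1.57 and 1.53 CPM from 27, 0, 9 and 9 UMIs. The mixed Acinar/MucinDuctal cells had 14.8, 1.72, 3.21 and 9.15 CPM, with 2-week mouse 1 and 4-week mouse 2 high as in Acinar cells. In Ductal-like cells 4-week mouse 2 stood apart, with 1.52, 2.09, 0 and 12.2 CPM over 22 to 56 cells per mouse.

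Chac1, an enzyme that degrades glutathione and a target of the PERK branch, had a similar order of types. It measured 34.8, 25.7, 5.59 and 13.6 CPM in Acinar cells, from 1744, 446, 146 and 485 UMIs, and 1.27, 1.16, 1.89 and 0.343 CPM in MucinDuctal cells, from 11, 43, 34 and 8 UMIs. Acinar cells had the highest level of the 8 types in each of the 4 mice. Acinar.Prolif cells had 13.5, 4.02, 2.098 and 2.55 CPM and Acinar/MucinDuctal cells 18.6, 9.41, 4.82 and 9.61 CPM. Trib3 and Chac1 were both lower in MucinDuctal, Tuft, EEC and Acinar.Prolif cells than in Acinar cells independent of the total.

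Ddit3 encodes CHOP, the transcription factor tied to death under ER stress. Acinar cells had 40.2, 29.2, 16.2 and 43.1 CPM and Acinar.Prolif cells 5.58, 13.1, 3.32 and 6.296 CPM. The ranges did not overlap, and the proliferating cells were lower independent of the total, 4.82-fold with all UMIs. MucinDuctal cells had 23.9, 27.1, 19.9 and 22.6 CPM, within the Acinar range. They were lower in 3 of 4 mice with all UMIs, the exception being 4-week mouse 1 with its low Acinar value, and in every mouse without enzyme UMIs. In Acinar/MucinDuctal cells 2-week mouse 1 stood apart, with 59.7, 22.4, 18.9 and 21.4 CPM.

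Asns, which makes asparagine, measured 195, 113, 119 and 115 CPM in Acinar and 405, 248, 368 and 334 CPM in MucinDuctal cells, without overlap. It was higher in MucinDuctal cells in every mouse under 3 totals and in 0 of 4 after TMM scaling (log2 ratio -0.21). Tuft cells had 64.97, 51.3, 40.3 and 50.8 CPM and EEC 94.97, 87.3, 72.1 and 81.2 CPM, both lower than Acinar cells independent of the total. With all UMIs, Atf4 mRNA ranged over the 8 types from 93.1 ± 5.81 CPM in Tuft cells to 137 ± 12.8 CPM in EEC, with 93.8 ± 24.2 CPM in Acinar cells. This order depended on the total. Without enzyme UMIs Atf4 exceeded Acinar cells in 0 of 4 mice in EEC, MucinDuctal and Tuft cells (log2 ratios -0.57, -0.88 and -1.14). The same held after TMM scaling (-1.49, -1.28 and -1.80). ATF4 protein is known to be set largely by translation, which was not measured.

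Ppp1r15a (GADD34) encodes the phosphatase subunit that reverses PERK signalling. EEC had 46.6, 44.02, 44.4 and 53.2 CPM and Acinar cells 10.8, 9.74, 5.13 and 9.42 CPM, in widely separate ranges. It was the 1 member higher in EEC than in Acinar cells independent of the total, with log2 ratios of 2.47 ± 0.46 with all UMIs, 1.32 ± 0.35 without enzyme UMIs and 0.40 after TMM scaling. Within EEC it went from 29.2 ± 3.88 CPM in EEC-Progenitor (Neurog3+) and 31.8 ± 5.07 in Epsilon (Ghrl+) cells to 67.1 ± 17.97 in Ppy+, 75.9 ± 42.3 in Delta (Sst+) and 82.3 ± 15.4 in ECL (Tac1+) cells. The 14 immediate early genes, which are known to respond to tissue dissociation, were also higher in EEC, at a summed 6191, 9765, 7296 and 7625 CPM against 879, 1943, 413 and 506 CPM in Acinar cells, with 14 of 14 detected in both. Their part in the Ppp1r15a difference was not tested.

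**Figure D3:**
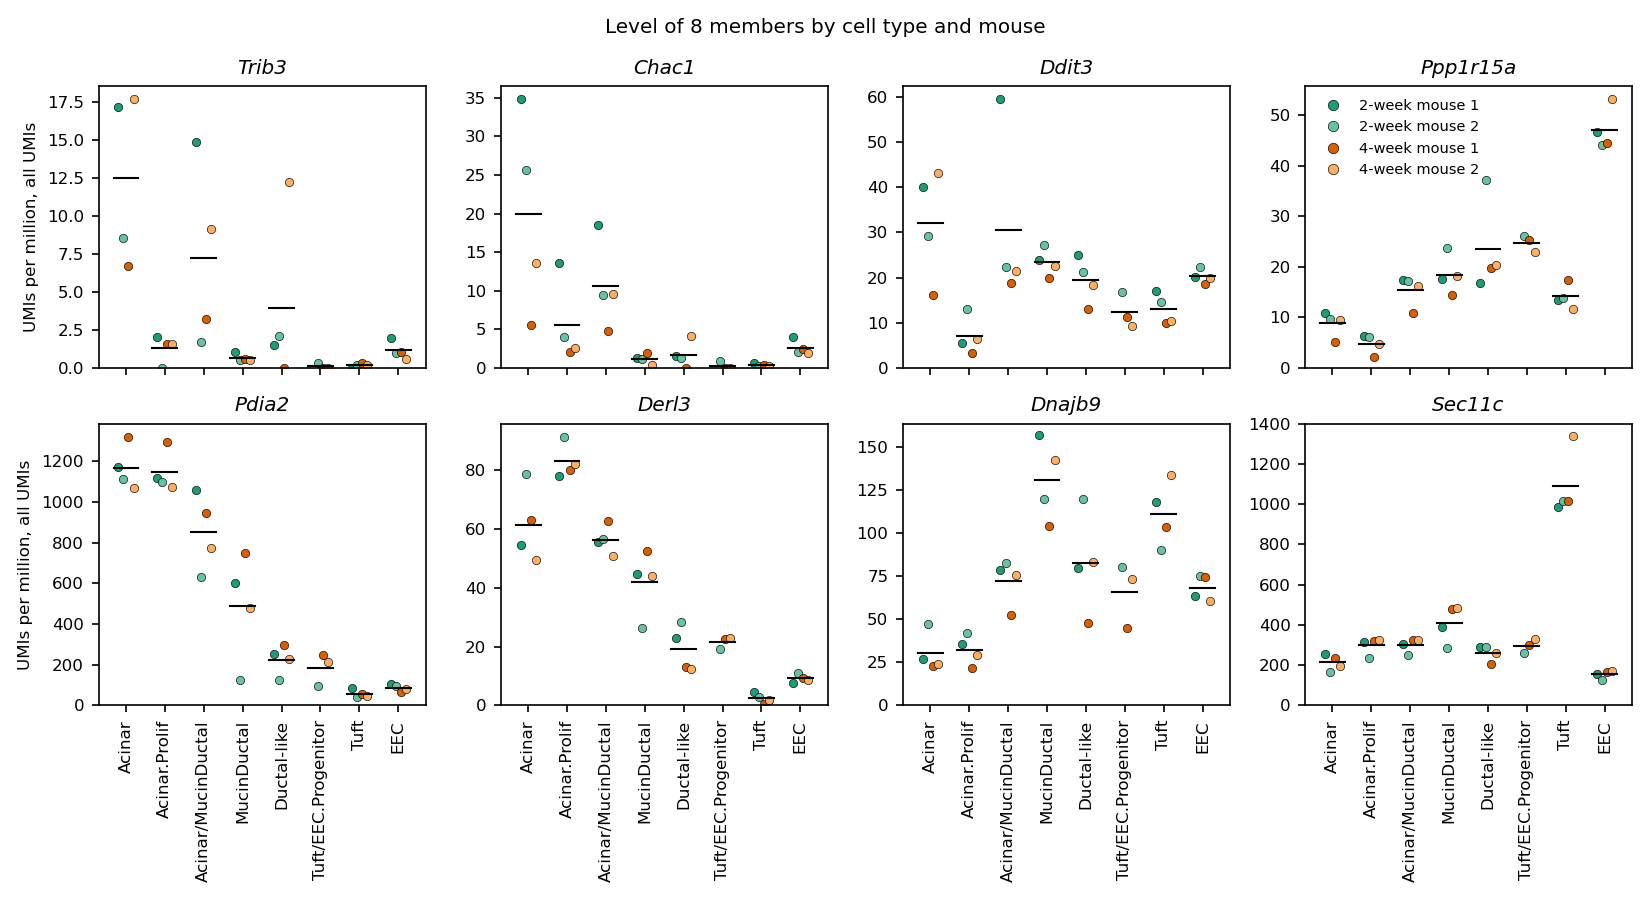
Level of 8 members (CPM of all UMIs) in the 8 cell types; points are mice and lines their means, and the 8 were picked after their values were seen. Trib3, Chac1 and Ddit3 have their highest mean in Acinar cells, Ppp1r15a in EEC and Sec11c in Tuft cells.

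Translocation members summed to 2166, 1276, 2009 and 1763 CPM in Acinar and 2863, 1692, 3282 and 3154 CPM in MucinDuctal cells, higher in MucinDuctal cells in every mouse with all UMIs and lower in every mouse without enzyme UMIs. Ssr4, a subunit of the translocon-associated complex, had 722 ± 66.5 CPM in Acinar and 1148 ± 260.3 CPM in MucinDuctal cells. Spcs1, a subunit of the signal peptidase complex, had 186 ± 22.7 and 285 ± 28.1 CPM. Sec61b, a subunit of the translocation channel, was low in 2-week mouse 2 in every type. Acinar cells had 906, 299, 835 and 679 CPM of it, MucinDuctal cells 1041, 370.2, 1110 and 1102, Tuft cells 538, 188, 455 and 498 and EEC 791, 313, 810.1 and 866. The B or T cells had 459, 178, 585 and 485 CPM, so the low value of that mouse was seen outside the named types too.

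Sec11c, a catalytic subunit of the signal peptidase complex, was highest in Tuft cells. They had 988, 1017, 1014 and 1339 CPM, against 257, 168, 237 and 198 in Acinar cells, 388, 287, 478 and 485 in MucinDuctal cells and 156, 125, 164 and 171 in EEC. The Tuft range lay above every value of the other 7 types. The log2 ratio to Acinar cells was 2.35 ± 0.39 with all UMIs, 1.18 ± 0.40 without enzyme UMIs and 0.52 after TMM scaling, where 3 of 4 mice were higher. Of the tuft subtypes, Tuft-3 had 1412 ± 220.4 CPM, Tuft-2 1028 ± 123, and Tuft-1, which had enough cells in 2 mice, 428 ± 26.4 (n = 2 mice). Spcs1, of the same complex, had 298 ± 12.8 CPM in Tuft cells.

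In Tuft cells 18 of 38 members were lower than in Acinar cells independent of the total (4.94% of 8883 genes) and 0 were higher (40.2%). The 18 were Hspa5, Pdia6, P4hb, Pdia2, Dnajc3, Sdf2l1, Creld2, Manf, Hyou1, Sel1l, Edem1, Derl3, Ddit3, Trib3, Chac1, Asns, Ssr4 and Sec61b. In EEC 15 members were lower (3.73% of 9506 genes): P4hb, Pdia2, Dnajc3, Sdf2l1, Ero1lb, Herpud1, Sel1l, Edem1, Derl3, Eif2ak3, Trib3, Chac1, Asns, Ssr4 and Sec11c. Ppp1r15a was the 1 higher member (36.6%). In Acinar.Prolif cells 6 members were lower than in Acinar cells (2.98% of 7008 genes) and 1 was higher (23.1%). The 6 were Ern1, Eif2ak3, Ddit3, Trib3, Chac1 and Ppp1r15a, all of them sensors or stress effectors, and none of the 28 folding, degradation and translocation members was among them.

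Within the tuft lineage, Hsp90b1 had 486 ± 44.8 CPM in Tuft-1 (n = 2 mice), 981 ± 91.8 in Tuft-2 cells and 1527 ± 182 CPM in Tuft-3 cells. Xbp1 had 159 ± 29.9 (n = 2 mice), 336 ± 55.8 and 370.3 ± 20.1 CPM in the same order, and Ero1lb 80.9 ± 8.77 (n = 2 mice), 96.98 ± 5.89 and 164 ± 11.8 CPM. Atf4 had 114 ± 20.3 (n = 2 mice), 86.7 ± 7.75 and 95.8 ± 13.8 CPM, with no such step. Among EEC subtypes, Hspa5 was 373 ± 67.8 CPM in EEC-Progenitor (Neurog3+) cells and from 650 ± 162 in Delta (Sst+) to 908 ± 117 CPM in Epsilon (Ghrl+) cells. Sel1l went the other way, with 270.2 ± 7.07 CPM in the progenitors and from 65.2 ± 32.6 in Ppy+ to 113 ± 48.1 CPM in Delta (Sst+) cells.

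Chaperones were set against stress effectors as the ratio of their summed UMIs, in which the total cancels. The ratio follows the most abundant members, and most of the effector sums came from Atf4 and Asns. Trib3 and Chac1 weigh little in it. Acinar cells had 10.5, 17.9, 20.97 and 14.5 folding UMIs per effector UMI and MucinDuctal cells 11.3, 12.3, 14.01 and 13.4, in overlapping ranges. Tuft cells had 19.02, 17.9, 23.8 and 23.6 and EEC 15.7, 15.1, 15.3 and 15.5. Acinar.Prolif cells had 16.4, 22.5, 23.1 and 26.7, above Acinar cells of the same mouse in 4 of 4. The SD of the log2 ratio over mice was 0.43 in Acinar cells and 0.02 in EEC. Tuft-1 cells had 10.5 and 7.86 (2 mice), EEC-Progenitor (Neurog3+) cells 9.48, 12.2, 9.46 and 10.997 and Tuft-3 cells 18.7, 27.8, 27.8 and 30.6. In B or T cells the ratio was 13.1, 19.3, 21.7 and 17.02, which overlaps most marked types.

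**Figure D4:**
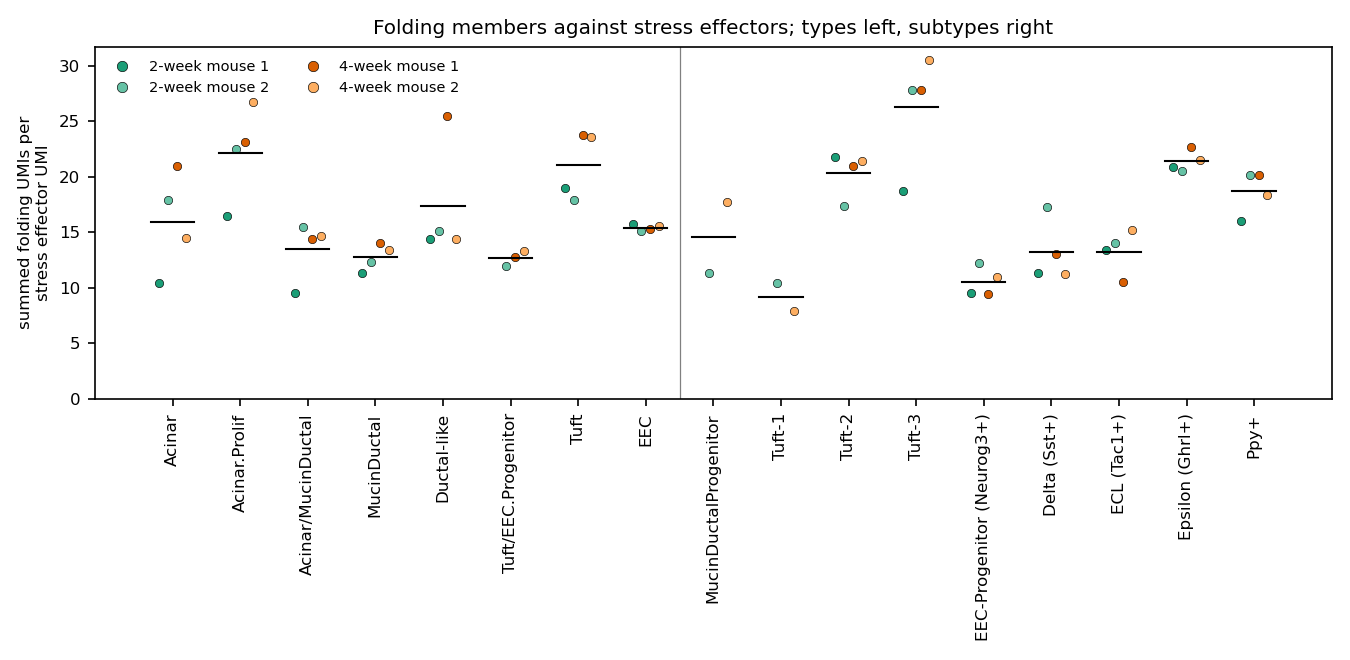
Ratio of summed folding UMIs to summed stress effector UMIs in the 8 cell types and the tuft and enteroendocrine subtypes; points are mice with at least 20 cells and lines their arithmetic means. Tuft-3 reaches the highest single value, 30.6, and Tuft-1 the lowest, 7.86, and the 4 EEC points lie between 15.1 and 15.7.

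The share of cells that carried effector transcripts was read after thinning every cell to 1500 UMIs, since depth differs between types. Among Acinar cells 8.61%, 6.48%, 3.46% and 8.16% then held a UMI of Ddit3, Trib3 or Chac1. In the B or T cells the shares were 4.11%, 4.47%, 4.13% and 5.28%. B or T cells can express these genes themselves, so their shares are not a measure of free RNA alone. Median depths before thinning were 24008 to 32665 UMIs in Acinar cells and 2973 to 3888 in B or T cells, with 15110 to 21810 in MucinDuctal cells. Acinar cells were above the B or T cells in 3 mice and below in 4-week mouse 1. MucinDuctal cells (3.81%, 4.16%, 3.36% and 3.69%), EEC (3.52%, 3.86%, 3.37% and 3.46%) and Tuft cells (2.89%, 2.25%, 1.16% and 1.54%) were below the B or T cell share in every mouse. Without thinning the shares were 40.9%, 43.6%, 27.95% and 47.1% in Acinar, 36.1%, 40.3%, 30.6% and 30.9% in MucinDuctal, 26.5%, 26.5%, 23.1% and 22.1% in EEC, 28.9%, 23.3%, 14.6% and 14.4% in Tuft and 12.6%, 12.6%, 11.1% and 9.52% in B or T cells, so that these 4 types were then above the B or T cells in every mouse. Thinning keeps a larger part of the UMIs of a shallow cell, free RNA included, and the part of free RNA in these shares was not tested. The 1500 UMIs include enzyme UMIs, which were 50.1% to 60.4% of the total in Acinar and 1.43% to 3.16% in MucinDuctal cells. In B or T cells they were 3.07% to 22.2%. Fewer of the 1500 UMIs of an Acinar cell are thus left for other genes, and thinning was not repeated without enzyme UMIs. Thinning left out 17, 2, 1 and 12 Acinar cells with fewer UMIs.

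The 3 genes compared differently with the B or T cells, in thinned shares. Enzyme UMIs count among the 1500 UMIs here too, which lowers the Acinar shares most. Ddit3 was found in 4.04% of B or T cells, 3.63% of Acinar and 3.52% of MucinDuctal cells on average. Chac1 was found in 3.47%, 2.74%, 0.928% and 1.65% of Acinar and 0.632%, 0.0834%, 0.0264% and 0% of B or T cells, higher in Acinar cells in all 4 mice. Trib3 was found in 1.95%, 0.874%, 0.787% and 2.03% of Acinar and 0.148%, 0.0849%, 1.11% and 0% of B or T cells, higher in Acinar cells in 3 of 4. The high Trib3 share of B or T cells was that of 4-week mouse 1, whose B or T cells also held the highest sum of plasma cell markers. MucinDuctal cells had 0.205%, 0.0777%, 0.0917% and 0.0921% for Trib3, above the B or T cells in 2 of 4 mice, and 0.230%, 0.163%, 0.3005% and 0.0541% for Chac1, above them in 3 of 4. Ppp1r15a was found in 7.03%, 6.02%, 7.04% and 7.71% of EEC and 5.02%, 4.39%, 5.94% and 5.42% of B or T cells, higher in EEC in every mouse, and in 1.19% of Acinar cells on average. What B or T cells express themselves was not separated from free RNA in any of these shares.

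Acinar cells with an effector UMI held fewer folding UMIs per thinned cell than those without: the ratio was 0.926, 0.867, 0.972 and 0.863, below 1 in every mouse. In EEC the ratio was 1.33, 1.41, 1.06 and 1.15, above 1 in every mouse, and in MucinDuctal cells 0.931, 1.14, 0.947 and 1.05. B or T cells had 1.104, 1.12, 0.859 and 1.19. The EEC ratios rest on 9.25 to 13.9 cells with such a UMI per mouse, averaged over 20 draws, and no ratio was tested. They pool the EEC subtypes, which differ in folding members such as Hspa5. The part of the subtype mix in these ratios was not tested.

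**Figure D5:**
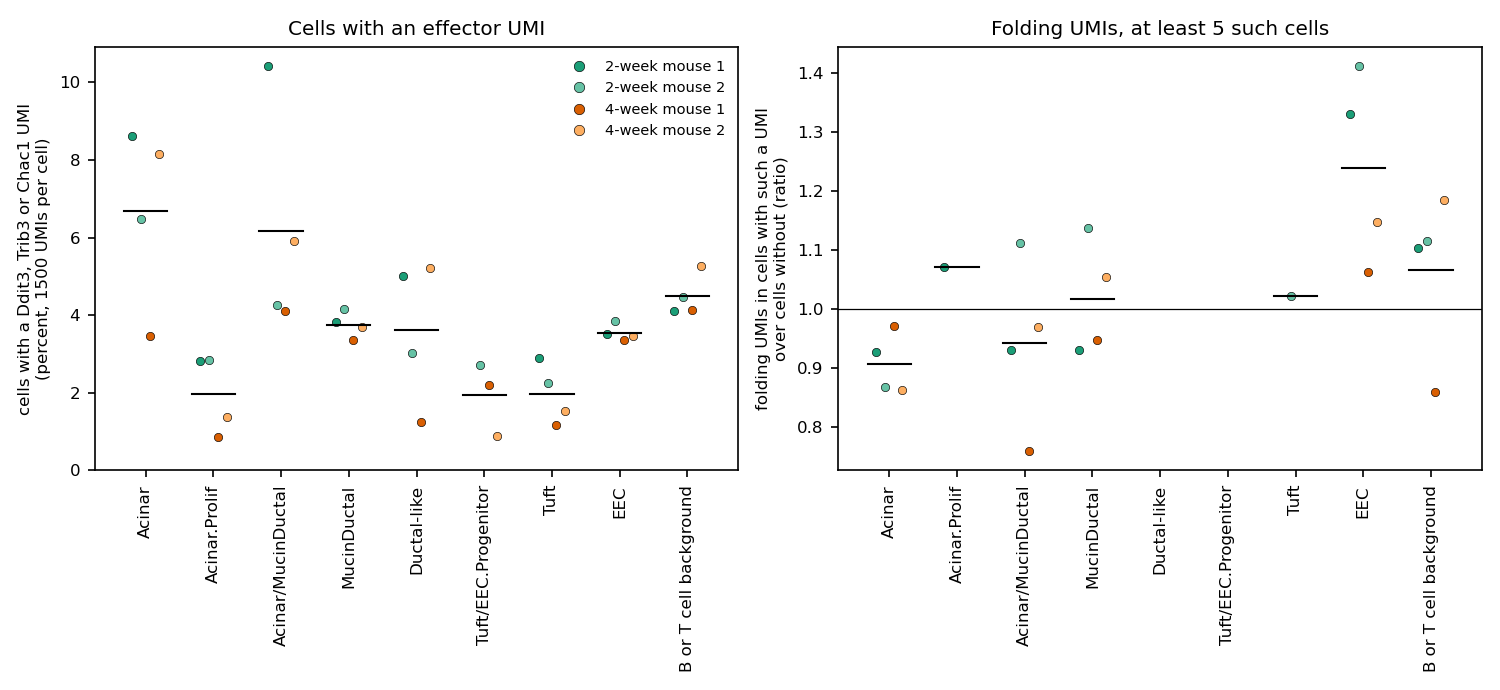
Left, percent of cells with a UMI of Ddit3, Trib3 or Chac1 after thinning to 1500 UMIs; right, folding UMIs in cells with such a UMI over cells without, shown where a mouse had at least 5 such cells on average; points are mice. On the left Acinar cells lie above the B or T cells in 3 of 4 mice, and on the right all 4 Acinar points are below 1 and all 4 EEC points above 1. The 1500 UMIs include acinar enzyme UMIs.

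Further genes of the pathway were read as 4 lists. Of 20 other folding genes, 17 were higher and 1 lower in MucinDuctal than in Acinar cells in every mouse with all UMIs, and 7 were higher and 3 lower without enzyme UMIs, beside the shares of all genes given above. Ppib, a prolyl isomerase of the ER, had 1029 ± 83.5 CPM in Acinar and 1984 ± 648 in MucinDuctal cells. Fkbp11, another ER prolyl isomerase, had 656, 457, 679 and 527 CPM in Acinar, 238, 163, 312 and 301 in MucinDuctal and 23.997, 13.1, 21.7 and 14.2 in Tuft cells, in ranges that did not overlap. Of 17 other degradation genes, 16 were higher and 0 lower with all UMIs, and 5 higher and 6 lower without enzyme UMIs. Selenos had 164 ± 10.4 and 349 ± 76.3 CPM in Acinar and MucinDuctal cells, and Vcp, the ATPase that extracts substrates, 134 ± 34.97 and 235 ± 30.8 CPM. Of 23 other translocation genes, 21 were higher and 0 lower with all UMIs, and 3 higher and 10 lower without enzyme UMIs. Sec61g, a channel subunit, had 769 ± 135 and 1006 ± 155 CPM, and Dad1, an oligosaccharyltransferase subunit, 259 ± 13.2 and 504 ± 58.1 CPM. The CPM of these named genes are shares of all UMIs. Without enzyme UMIs Sec61g, Dad1 and Vcp were higher in MucinDuctal cells in 0 of 4 mice (log2 ratios -0.76, -0.20 and -0.31). Ppib and Selenos were then higher in 1 of 4 (-0.28 and -0.09).

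Of 29 other targets of the PERK and ATF4 branch, 9 were higher and 8 lower in MucinDuctal cells with all UMIs, and 0 higher and 23 lower without enzyme UMIs. Nupr1, a stress-induced chromatin factor first described in pancreatitis, had 4107, 2345, 2144 and 5974 CPM in Acinar, 662, 615, 614 and 912 in Acinar.Prolif and 201, 146, 168 and 195 in MucinDuctal cells. The ranges did not overlap, and the 2 mice highest in Acinar cells were the 2 highest in Trib3. In Ductal-like cells Nupr1 had 156, 167, 135 and 1399 CPM, with the same mouse high as for Trib3. Phgdh, the first enzyme of serine synthesis, had 136 ± 17.8 CPM in Acinar and 35.3 ± 5.71 in MucinDuctal cells.

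Time, 4 weeks against 2 weeks with 2 mice each, was the contrast that could be tested, and no member passed in the 7 types tested. Tuft/EEC.Progenitor, with 10 cells in 2-week mouse 1 against the minimum of 20, was not tested. The edgeR quasi-likelihood test with Benjamini-Hochberg adjustment called 0 of 38 members in Acinar cells (0% of genes), 0 of 37 in Acinar.Prolif (0.00995% of genes, 1 of 10046), 0 of 38 in Acinar/MucinDuctal, 0 of 38 in MucinDuctal, and 0 of 36 each in Tuft, EEC and Ductal-like cells (0% of genes in each). DESeq2 called 0 members in these 7 types. At an unadjusted p under 0.05 edgeR counted 0 members in Acinar cells (2.79% of genes), 2 in Acinar.Prolif (2.45%), 1 in Acinar/MucinDuctal (3.42%), 1 in MucinDuctal (5.39%), 3 in Tuft (6.74%), 2 in EEC (4.03%) and 4 in Ductal-like (5.27%). A test of the interaction, with the mouse as a block, asked whether MucinDuctal and Acinar cells differed in their change over time. By edgeR 0 of 38 members passed (0% of genes) and 0 had an unadjusted p under 0.05 (3.05% of genes), and DESeq2 called 0. A missed threshold with 2 mice per group does not show that levels were alike.

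Chac1 came nearest in Acinar cells. Its 2-week values were both above its 4-week values, and edgeR gave log2 change -1.25, SE 0.48, unadjusted p = 0.0512, adjusted p = 0.998. In Acinar.Prolif cells the edgeR values were log2 change -1.97, SE 0.77, unadjusted p = 0.058, adjusted p = 1. The edgeR log2 change of Chac1 was -1.95 in Acinar cells without 4-week mouse 2 and -2.52 in Acinar.Prolif cells without 2-week mouse 2. Each of these fits leaves 1 mouse at a time point. In each, the mouse left out was the one nearer in Chac1 to the other time point. The immediate early genes given above were also higher in both 2-week mice in Acinar cells, and their part in the Chac1 estimate was not tested. Ddit3 and Trib3 showed no such order in Acinar cells (edgeR log2 changes 0.18, SE 0.54 and 0.29, SE 0.68).

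In Tuft cells, where Hsp90b1 was highest, its 4-week values given above both exceeded its 2-week values (log2 change 0.40, SE 0.14, unadjusted p = 0.018, adjusted p = 0.591 in edgeR). Atf6 had 25.8, 28.99, 36.99 and 38.7 CPM in Tuft cells (log2 change 0.45, SE 0.16, unadjusted p = 0.0228, adjusted p = 0.612 in edgeR). Ddit3 had 16.97, 14.6, 9.92 and 10.4 CPM (log2 change -0.60, SE 0.23, unadjusted p = 0.029, adjusted p = 0.656 in edgeR). The time points did not overlap for these 3 members, and none passed. In Ductal-like cells Calr had 624, 704, 349 and 446 CPM (log2 change -0.73, SE 0.23, unadjusted p = 0.00934, adjusted p = 0.9 in edgeR). The enzyme share of 4-week mouse 1 was 10.2% in that type against 2.14% to 2.95% in the other mice, and its part in the Calr estimate was not tested.

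As a description, 30 of 38 members had a positive estimate at 4 weeks in Acinar cells (46.4% of all genes), with a median log2 change of 0.24 (-0.03 for all genes). In MucinDuctal cells 29 of 38 were positive (49.0% of all genes), with a median of 0.26 (-0.01 for all genes). These estimates pool the 2-week mice, and a positive one need not hold for each. The folding sum of MucinDuctal cells, given above, was lowest in 2-week mouse 2, while 2-week mouse 1 lay between the 4-week mice. In Ductal-like cells 6 of 36 were positive (49.3% of all genes) with a median of -0.41, in Tuft cells 22 of 36 (49.1%) with a median of 0.07, and in EEC 17 of 36 (48.96%) with a median of -0.0036. The median of all genes was -0.0055, -0.0051 and -0.0066 in these 3 types. In Acinar.Prolif cells 23 of 37 were positive (51.4% of all genes) and in Acinar/MucinDuctal cells 23 of 38 (48.8%). Their medians were 0.085 and 0.084, against 0.0081 and -0.0076 for all genes. Sec61b had the largest positive estimate of any member in Acinar cells (edgeR log2 change 0.71, SE 0.65), which goes with the low value of 1 of the 2-week mice. Without 2-week mouse 1, that mouse is the lone 2-week sample, and Sec61b then passed in Acinar.Prolif, Acinar/MucinDuctal, MucinDuctal, Tuft and EEC (edgeR log2 changes of 1.34 to 1.88, adjusted p from 8.21e-07 to 0.0483). Pdia2, also lowest in MucinDuctal cells of that mouse, then passed in MucinDuctal and Ductal-like cells (edgeR log2 changes 2.45 and 1.04, adjusted p = 0.0443 and 0.02). Without 2-week mouse 1, 122 to 366 of all genes passed in these 6 types.

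Of the 4 further lists, 1 gene passed over time. Atf3, a stress-responsive transcription factor, fell by 2.39 on the log2 scale in Acinar.Prolif cells (SE 0.25, edgeR adjusted p = 0.0144; 1 of 28 tested genes of its list), where a fit without robust estimation called 0 genes. Of the 20 other folding genes, 6 had an unadjusted p under 0.05 in MucinDuctal cells by edgeR, all with higher estimates at 4 weeks, and 0 passed adjustment; of all 13463 genes 726 (5.39%) were under it, 312 of them with higher estimates. In Acinar cells the other folding, degradation and translocation lists had 0 genes at an unadjusted p under 0.05 by edgeR out of 20, 17 and 23, and the list of PERK and ATF4 targets had 1 of 29. That gene was Atf3 (log2 change -2.30, SE 0.36, unadjusted p = 0.000523, adjusted p = 0.718 in edgeR). In Acinar cells the immediate early genes given above were also higher in both 2-week mice. Their part in the Atf3 estimates was not tested.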

How the data were processed

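The authors deposited UMI counts per gene and cell (10x Genomics 3' libraries), without normalization, and cell type names. Cell Ranger 4.0.0, Seurat 3.2.3 and mm10 are named in the submitters' processing notes. Counts were summed per mouse and type with at least 20 cells, and CPM were computed here. Replicate numbers follow accession order and only name mice. Mice were compared over time with edgeR 4.0.16 (quasi-likelihood, robust, TMM, filterByExpr, adjusted p threshold 0.05) in R 4.3.3, checked on simulated data, with DESeq2 1.42.0 as an alternative. The members and lists were chosen with earlier results of these data known. Any member may be named; of each further list, the 2 genes highest in Acinar cells and any past the time test are named. B or T cells are cells without a deposited type that had UMIs of at least 2 B cell or 2 T cell markers and no UMI of Krt19 or Col1a1. No doublet caller was run; cells above 2 medians of the UMIs of their mouse and type were left out as an alternative. Promoters are from RefSeq, build GRCm38.p6; protein sequences were not used here.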

Additional observations from a re-analysis of the deposited data

How the results depend on the processing

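No paired analysis was possible between time points because the labels give no pairing of their mice. Types were compared within each mouse. The main values are log2 ratios to Acinar cells with all UMIs, followed here by those without enzyme UMIs, without genes over 1% and after TMM scaling. In MucinDuctal cells folding went from 0.46 to -0.69, -0.59 and -1.09, degradation from -0.23 to -1.38, -1.28 and -1.78, sensors from 1.05 to -0.10, 0.00301 and -0.50, stress effectors from 0.73 to -0.42, -0.31 and -0.81, and translocation from 0.59 to -0.56, -0.46 and -0.96. In EEC folding went from -0.01 to -1.17, -1.12 and -2.09 (-0.17 with every cell weighted equally), and stress effectors from -0.01 to -1.17, -1.12 and -2.09. In Tuft cells folding went from -0.34 to -1.50, -1.63 and -2.17, and stress effectors from -0.78 to -1.94, -2.07 and -2.61. Except for the value with cells weighted equally, the changed total is by construction the only difference between these values. Members higher in MucinDuctal cells in every mouse went from 22 to 3, 2 and 1, and lower ones from 9 to 26, 24 and 33, beside 92.9% to 59.3%, 59.3% and 38% of all genes higher and 2.83% to 16.2%, 13.5% and 32% lower. The folding to effector log2 ratio of EEC moved from 3.95 to 3.88 without cells above 2 medians of UMIs and to 3.86 with cells weighted equally. Effector-positive cells without thinning made up 39.9% of Acinar, 34.5% of MucinDuctal, 24.5% of EEC and 20.3% of Tuft cells, and at 5000 UMIs 16.9%, 11.5%, 10.5% and 5.94%, since a deeper cell shows more.

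Leaving out 1 mouse at a time gave, in MucinDuctal cells, 0.39 to 0.62 for folding, -0.32 to -0.001 for degradation, 0.87 to 1.34 for sensors, 0.56 to 0.82 for stress effectors and 0.51 to 0.65 for translocation. In EEC it gave -0.06 to 0.03 for folding and -0.12 to 0.14 for stress effectors, and in Tuft cells -0.40 to -0.21 and -0.88 to -0.67. The folding to effector log2 ratios ranged from 3.80 to 4.13 in Acinar, 3.62 to 3.73 in MucinDuctal, 3.94 to 3.96 in EEC and 4.32 to 4.46 in Tuft cells, the member counts from 22 to 28 higher and 9 to 10 lower, and the effector-positive shares from 6.03% to 7.75%, 3.62% to 3.89%, 3.45% to 3.61% and 1.65% to 2.22% in Acinar, MucinDuctal, EEC and Tuft cells.

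Over time, edgeR without a gene filter called 1 member each in Acinar and Acinar.Prolif cells (Chac1). Leaving out 1 mouse gave 0 to 1 member calls in Acinar, 0 to 3 in Acinar.Prolif, 0 to 1 in Acinar/MucinDuctal (Ddit3 without 2-week mouse 2), 0 to 2 in MucinDuctal, 0 to 1 in Ductal-like, 0 to 1 in Tuft, 0 to 3 in EEC and 0 to 2 for the interaction (Derl3 and Pdia2 without 2-week mouse 1). Over all genes the same fits called 13 to 129 in Acinar, 5 to 143 in Acinar.Prolif, 0 to 122 in Acinar/MucinDuctal, 0 to 191 in MucinDuctal, 0 to 230 in Ductal-like, 5 to 273 in Tuft, 0 to 366 in EEC and 2 to 970 for the interaction. The lone remaining mouse of a time point is assumed there to vary like the others, and the cause of these calls was not tested. With all mice, counts over all genes called by edgeR, DESeq2 and edgeR without a filter were 0, 17 and 286 in Acinar, 1, 2 and 51 in Acinar.Prolif, 0, 20 and 128 in Acinar/MucinDuctal, 0, 44 and 6 in MucinDuctal, 0, 1 and 81 in Ductal-like, 0, 30 and 266 in Tuft, 0, 14 and 74 in EEC and 0, 0 and 19 for the interaction.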
